A study of Sus scrofa with 2 samples.

Results

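This section describes a pair of long transcribed regions that lie next to each other on chromosome 2 of the pig genome, chr2:5165729-5173464 and chr2:5192874-5213288. They are called the shorter region (7736 bases) and the longer region (20415 bases). They are 2 of 75535 stretches covered by reads in 2 RNA libraries, and their members are all reads whose start lies within those limits. The pair was selected on read number, width and unbroken cover in these same libraries, so these values are given as a description and support nothing further. Positions are those of the start column of the deposited files.

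The libraries came from primary cultures of embryos of Danish Landrace sows sired by Yorkshire boars, taken between days 17 and 24 of gestation. The pEGC library is from embryonic germ cells, which are colonies grown out from primordial germ cells, the precursors of sperm and eggs. These colonies were kept with LIF (10 ng/ml), SCF (10 ng/ml) and bFGF (3 ng/ml) on STO mouse fibroblasts made inactive with mitomycin C, and mouse reads that align to the pig genome could not be told apart from pig reads. The pFF library is from fetal fibroblasts, a connective tissue cell, and its culture is not described separately. No treatment beyond these culture conditions is described for either library. Poly(A) RNA was sequenced in both, with 1 library per group, so every value below compares 2 libraries and has no replicate check. The labelled cell types were not checked against marker genes, because the build of the files was not given in the sources used here and genes could not be placed on it.

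Each library held 14324517 aligned reads. Between 245000 and 260000 on chromosome 6, a block of very high cover took 11.5% of the reads in pEGC and 30.6% in pFF. Levels are given as RPM, reads per 1000000 reads outside that block, of which there were 12682180 in pEGC and 9942279 in pFF. RPKM is RPM per kb of sequence. Intervals are exact 95% (Clopper-Pearson) and cover counting error only.

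The size, cover and spacing of the pair led to the idea that they are MALAT1 and NEAT1. MALAT1 is an abundant, mostly unspliced RNA kept in nuclear speckles, and its end is not a poly(A) tail but a folded, A-rich structure left after a tRNA-like piece is cut off. NEAT1, its neighbour in mammals, is the RNA scaffold of paraspeckles. It is made as a short polyadenylated form and as a long form that shares its 5′ end, runs on past that poly(A) site and is the one that builds paraspeckles. Human embryonic stem cells are known to lack paraspeckles, which appear as they differentiate.

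That identity was not settled by these files. Neither gene name was found in the RefSeq and Ensembl name tables used here. The build of the files was not given, so coordinates of the RefSeq table, of the assembly Sscrofa11.1, were not set against theirs. On 6 of 19 chromosomes the highest read position passed the end of the table's final gene. Reads can lie beyond the final gene in a matching build as well, so this does not decide the build. In the human genome NEAT1 lies upstream of MALAT1 and both are transcribed in the same direction. If that holds here, both genes run from high to low coordinates and the 5′ end of each is its high-coordinate end. Distances below are counted from that end for this reason. The reads themselves give no direction of transcription, because the library protocol keeps no strand: strand F took 48.2% of the shorter region's reads in pEGC and 48.4% in pFF, and 52.8% and 52.5% of the longer region's. The sparse low-coordinate ends were less even. Strand F took 59.0% and 70.7% in the lowest 902 bases of the shorter region, and 65.5% and 60.9% in the lowest 4212 bases of the longer. In the other parts described below it took between 46.0% and 54.9%.

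The pair dominated its neighbourhood. Of 374874 pEGC reads between 5150000 and 5230000, the shorter region held 91.0% and the longer 8.92%. Of 170812 pFF reads it was 93.8% and 6.09%. The remaining 387 pEGC reads and 257 pFF reads were spread over all other sequence of these 80 kb. In the 10 kb above the shorter region there were 14 reads in pEGC and 1 in pFF, and in the 10 kb below it 9 and 10. The regions were 19.4 kb apart, with 64 pEGC reads and 44 pFF reads between them.

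**Figure D1:**
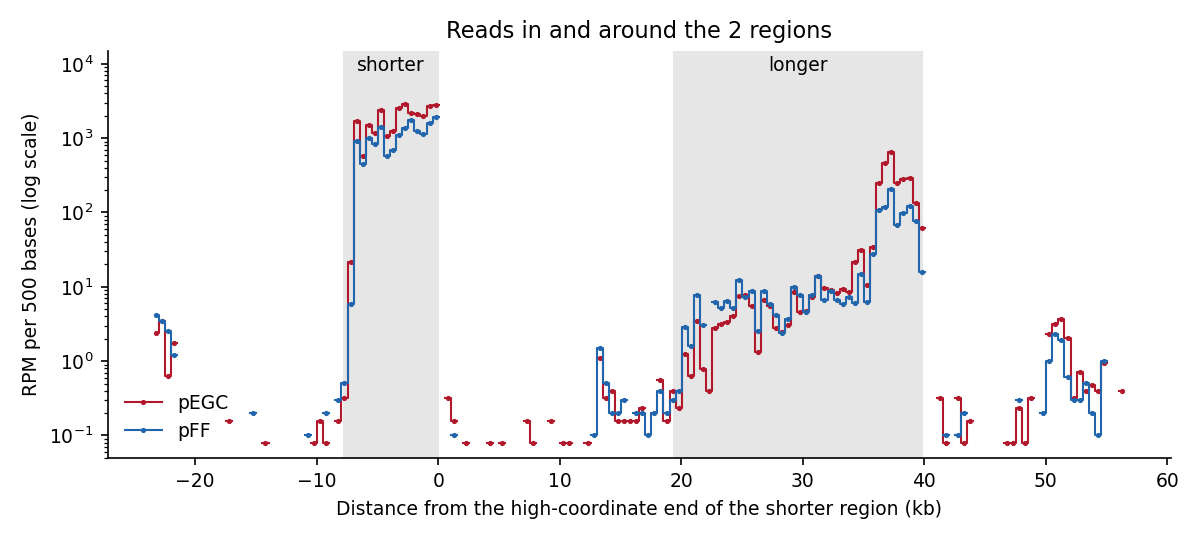
Reads per 1000000 (RPM, log scale) in windows of 500 bases over 80 kb of chromosome 2, for pEGC (red) and pFF (blue), by distance from the high-coordinate end of the shorter region. Grey bands mark both regions, and windows without a read are left blank. Both libraries fall to almost no reads outside the bands, with 14 pEGC reads and 1 pFF read in the 10 kb above the shorter region.

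The shorter region, the MALAT1 candidate, was among the most abundant covered regions of both poly(A)-selected libraries. It had 341065 reads in pEGC and 160149 in pFF. Outside the block, this was 2.69% of all reads in pEGC (2.68 to 2.70) and 1.61% in pFF (1.60 to 1.62). By reads outside the block it ranked at 1 of 75532 regions in pEGC and at 2 in pFF. Per kb it stood apart from other wide regions, with 64790 pooled reads per kb against a median of 155 over 2244 regions of at least 5000 bases.

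Its level was 26893 RPM in pEGC, against 16108 RPM in pFF. The pEGC level was thus 1.67-fold that of pFF (1.66 to 1.68). This did not reach the 2-fold difference used as a rule of size, whereas with all reads of the file as the total, block included, the ratio was 2.13 and passed it. Of 32203 regions with at least 50 reads in 1 library, 30.6% were at least 2-fold higher in pEGC and 17.2% at least 2-fold higher in pFF. A ratio above that of the shorter region was found in 37.1% of them, and their median log2 ratio was 0.32. Relative to a trimmed mean of M-values, which shifts every log2 ratio of pEGC over pFF down by 0.34, the shorter region was 1.32-fold higher in pEGC.

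Nearly all of these reads lay in a core with abrupt ends. The largest step in the profile was at 5166631 in the libraries together and in each alone, which left a core of 6834 bases with 340736 pEGC reads and 160057 pFF reads. In the 100 bases inside this low-coordinate edge there were 8595 reads in pEGC and 2604 in pFF, and in the 100 bases outside it 26 and 10. At the high-coordinate end the last 100 bases with read starts held 13728 and 8139 reads, and the next 500 bases held none in either library. The edges therefore differed in kind. The high edge ended in 0 reads, while a faint shoulder of 902 bases followed the low edge, with 329 reads in pEGC and 92 in pFF. The shoulder had 28.8 RPKM in pEGC and 10.3 RPKM in pFF, against 3931 and 2356 RPKM in the core. Its ratio was 2.80 (2.22 to 3.57), above that of the core at 1.67. At the low limit of the region the 100 bases just inside held 1 pEGC read and 0 pFF reads, and the 100 bases just outside 0 and 2.

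Cover of the core was complete but for a few bases. Reads covered 99.9% of its bases in each library, and the longest stretch without a read was 3 bases in both. The median depth of a base was 1229 reads in pEGC and 539 in pFF. A read of 34 bases that spans a splice junction would not show in these files, so an unbroken core says only that no stretch of it lacked reads.

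**Figure D2:**
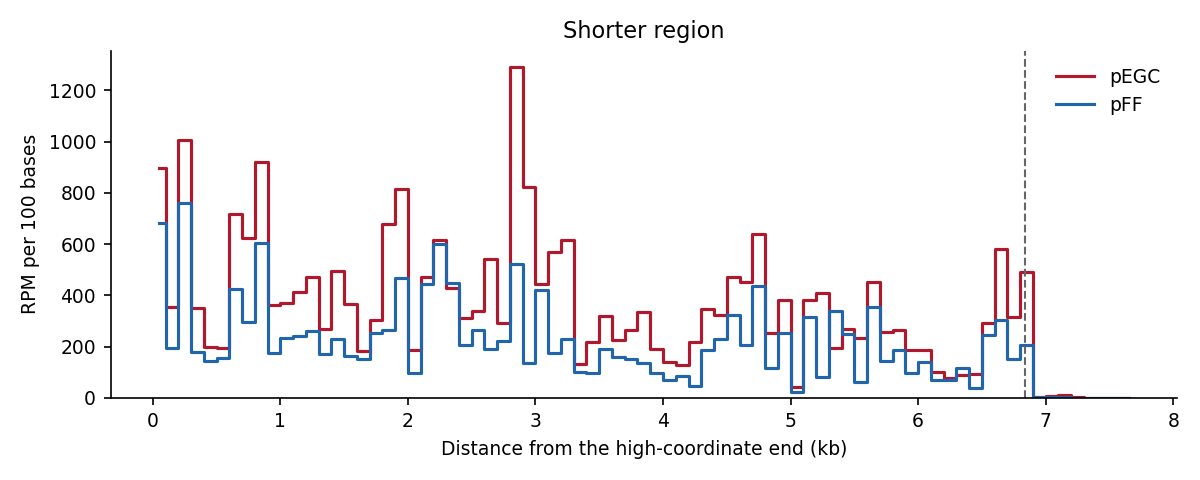
Reads per 1000000 (RPM) in bins of 100 bases along the shorter region, from its high-coordinate end at 0 kb, for pEGC (red) and pFF (blue). The dashed line marks the step at the end of the 6834-base core. Peaks and dips fall at many of the same places in both libraries, and pEGC has a peak of 16357 reads in 1 bin near 3 kb.

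Along the core the libraries rose and fell together. Over 68 bins of 100 bases, reads per bin ranged from 522 to 16357 in pEGC with a median of 4284, and from 245 to 7548 in pFF with a median of 1899. The profiles correlated with Pearson r = 0.79 and Spearman rho = 0.78 across these bins, which share mappability and base composition and are not independent. Both libraries had higher levels toward the high-coordinate end. The first 500 bases reached 2805 and 1958 RPM in pEGC and pFF, and the last full window of 500 bases 551 and 435 RPM.

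The ratio varied along the core. In all 13 windows of 500 bases pEGC was higher, with ratios from 1.12 to 2.46 and a median of 1.70. With the trimmed mean of M-values pEGC was higher in 12 of the 13 and with the median of ratios in 10, and with each position and strand counted once in 0, at ratios from 0.688 to 0.878. That last count has a ceiling in the number of positions, as set out below, and cannot decide the direction here. The lowest and the highest ratio were in neighbouring windows. From 2 to 2.5 kb the levels of pEGC and pFF were 2014 and 1797 RPM, a ratio of 1.12 (1.10 to 1.14). From 2.5 to 3 kb they were 3284 and 1335 RPM, a ratio of 2.46 (2.41 to 2.51). The latter window held the position with most reads of the region in pEGC, 4204 reads or 1.23% of them. In pFF the most used position of the region had 1246 reads, 0.778%.

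Repeated positions bear on these levels. In pEGC the reads of the shorter region started at 10302 combinations of position and strand, 66.6% of all that exist there, and in pFF at 8402, or 54.3%. Each was used 33.1 times on average in pEGC and 19.1 times in pFF. With every combination counted once the ratio of pEGC over pFF turned, to 0.745, and with at most 5 reads per combination it was 0.914. Such a count has a ceiling in the number of combinations that exist. Counted once, it was set against all combinations in use outside the block, 6292802 in pEGC and 3823858 in pFF. With most combinations of the region in use, it cannot decide which library was higher. Whether repeated positions are copies of 1 molecule or many was not tested.

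The longer region, the NEAT1 candidate, had 33422 reads in pEGC and 10406 in pFF. Its level was 2635 RPM in pEGC, against 1047 RPM in pFF, a ratio of 2.52 (2.46 to 2.57). It was past the 2-fold rule in that direction, as were 30.6% of the 32203 regions with at least 50 reads in 1 library. With the trimmed mean of M-values its ratio was 1.99 and with the median of ratios 1.96, just under 2-fold. With each position and strand counted once it was 0.974, and with at most 5 reads per position 1.29. It ranked at 15 of 75532 regions by pooled reads, at 9 in pEGC and at 60 in pFF, and at 11 by width.

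The longer region was made of parts of very unlike level. The largest step in its profile was at 5209720, which left an end part of 3569 bases at the high-coordinate end and a remainder of 16846 bases. Placed in each library alone, the step gave an end part of 3601 bases in pEGC and one of 3581 in pFF. The textbook length of the short human NEAT1 form, about 3700 bases, is near these values. In the 500 bases on the end part's side of the step there were 5988 reads in pEGC and 1560 in pFF, and in the 500 bases on the other side 519 and 285. No read of either library started in the 500 bases beyond the high-coordinate end. The low-coordinate limit showed no such edge. The 500 bases inside it held 3 reads in each library, and the 500 bases outside it 5 in pEGC and 2 in pFF. That limit, and so the width of the region, follows from joining starts within 200 bases. If the region is NEAT1 in the orientation given above, the end part is the sequence shared by the short and long forms and the remainder is found in the long form alone. Both libraries hold poly(A)-selected RNA, so levels of these parts are not proportions of the forms in the cells. What the selection did to each part was not tested.

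**Figure D3:**
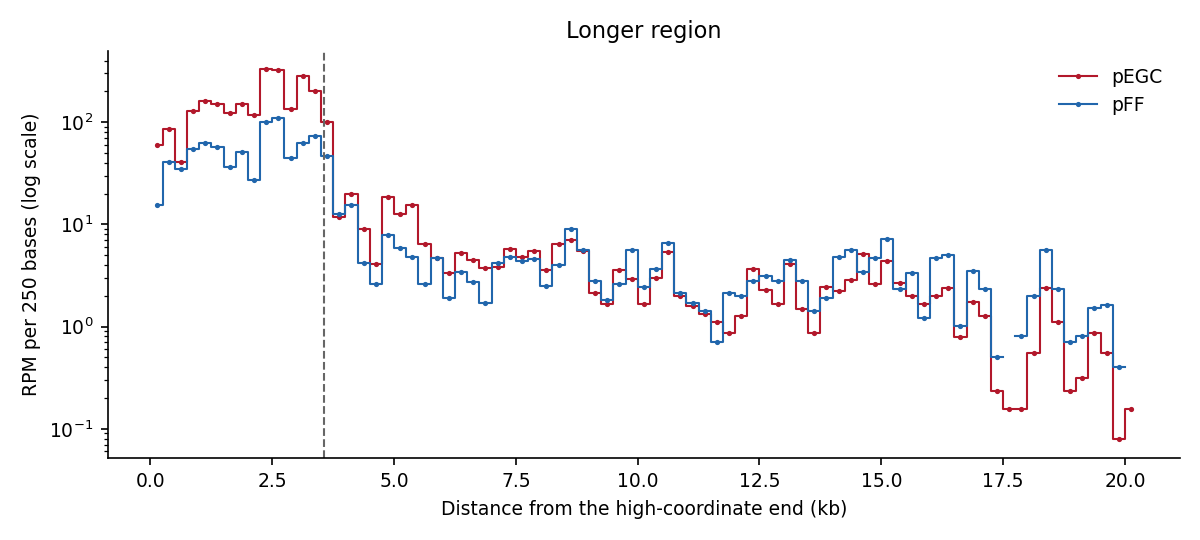
Reads per 1000000 (RPM, log scale) in bins of 250 bases along the longer region, from its high-coordinate end at 0 kb, for pEGC (red) and pFF (blue). The dashed line marks the step at the end of the 3569-base end part, and bins without a read are left blank. Reads in the 500 bases on either side of the step go from 5988 to 519 in pEGC and from 1560 to 285 in pFF, and pEGC lies above pFF before the step and below it at the far end.

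In the end part pEGC was higher. It had 30078 reads in pEGC and 8070 in pFF, which is 665 and 227 RPKM. The ratio was 2.92 (2.85 to 2.99), and pEGC was higher in all 7 windows of 500 bases, from 1.89-fold to 3.61-fold. This held in all 7 with the trimmed mean of M-values and the median of ratios, and in 5 of 7 with each position and strand counted once. The ratio tended to rise with distance from the high-coordinate end (Spearman rho = 0.86 over 7 windows). It was lowest from 0.5 to 1 kb and highest from 3 to 3.5 kb. Levels in this part were lowest at the high-coordinate end in both libraries and went from 146 and 56.1 RPM (pEGC and pFF) in the first 500 bases to 487 and 135 RPM between 3 and 3.5 kb. Those first 500 bases include an almost empty stretch at the limit, with 1 pEGC read and 0 pFF reads in 100 bases. Reads covered 97.4% of its bases in pEGC and 95.7% in pFF. The longest stretches without a read were 93 and 151 bases.

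In the remainder the libraries were close in sum. It had 3344 reads in pEGC and 2336 in pFF, or 15.7 RPKM and 13.9 RPKM, a ratio of 1.12 (1.06 to 1.18). The direction of this small difference depended on the scaling: with the trimmed mean of M-values the ratio was 0.887 and with the median of ratios 0.873. Counted once per position and strand it was 0.843, and the end part had 1.07 by that measure. The remainder was not a silent gap. Its level of 199 reads per kb in pEGC and 139 in pFF compared with 5.00 and 4.30 reads per kb in the 10 kb next to its low-coordinate end. Reads covered 80.4% and 80.2% of its bases, and the longest stretches without a read were 331 and 487 bases, pEGC again first.

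The share of the longer region's reads that fell in its end part differed between the poly(A)-selected libraries, and this needs no scaling between them. Per kb, the end part was 42.5 times the remainder in pEGC (41.0 to 44.0) and 16.3 times in pFF (15.6 to 17.1). The quotient of these was 2.60 (2.45 to 2.76, exact conditional interval). With the boundary at a fixed 3700 bases from the end it was 2.68, and with the medians of bins of 100 bases 2.96. With each combination of position and strand counted once it was 1.27. In the end part such combinations were 45.4% used in pEGC and 25.8% in pFF, and in the remainder 5.51% and 3.97%.

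As background, the quotient was computed in the same way for other wide regions, with an end part of the same share of the width at the high-coordinate end. Of 877 regions of at least 5000 bases with 50 reads or more in each part and library, 11.3% had a quotient at least 2-fold different in either direction, and 38 had one farther from 1 than the longer region. With either end allowed as the end part, 13.7% of 524 regions had such a 2-fold quotient. The share of the width was taken from the step of the longer region itself, and other regions were not cut at a step of their own. The median quotient of the 877 regions was 0.948, and that of the shorter region was 0.928.

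Within the remainder the balance between the cultures shifted with distance from the end part. The remainder was divided into 4 equal segments of about 4.21 kb. The one next to the end part had 1934 reads in pEGC and 887 in pFF, or 36.2 and 21.2 RPKM, a ratio of 1.71 (1.58 to 1.85). The second segment had 697 and 583 reads (13.1 and 13.9 RPKM), a ratio of 0.937 (0.838 to 1.05). The third had 548 and 577 reads (10.3 and 13.8 RPKM), a ratio of 0.745. The segment farthest away had 165 reads in pEGC and 289 in pFF, or 3.09 and 6.90 RPKM, and pFF was 2.23-fold higher there. From the nearest to the farthest segment the level fell 11.7-fold in pEGC (9.99 to 13.8) and 3.07-fold in pFF (2.68 to 3.52), a quotient of 3.82 (3.09 to 4.73).

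Windows of 1 kb showed the same course. The ratio was 1.59 in the first window and 2.47 in the second, at 754 against 372 and 652 against 207 reads. In the next 3 windows it was 1.51, 1.31 and 1.28. In the 11 windows beyond 5 kb from the step it lay below 1 in each, from 0.895 down to 0.379, and in 8 of them the interval lay below 1. The lowest was between 14 and 15 kb, with 44 reads in pEGC and 91 in pFF. In pEGC the level went from 59.5 RPM per kb in the first window to 2.60 in the last. In pFF it went from 37.4 to 5.23 and stayed between 7.85 and 17.1 over most of the way, from 2 to 13 kb. The crossing point, at about 5 kb, belongs to this scaling, while the fall of the ratio along the remainder does not depend on it.

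**Figure D4:**
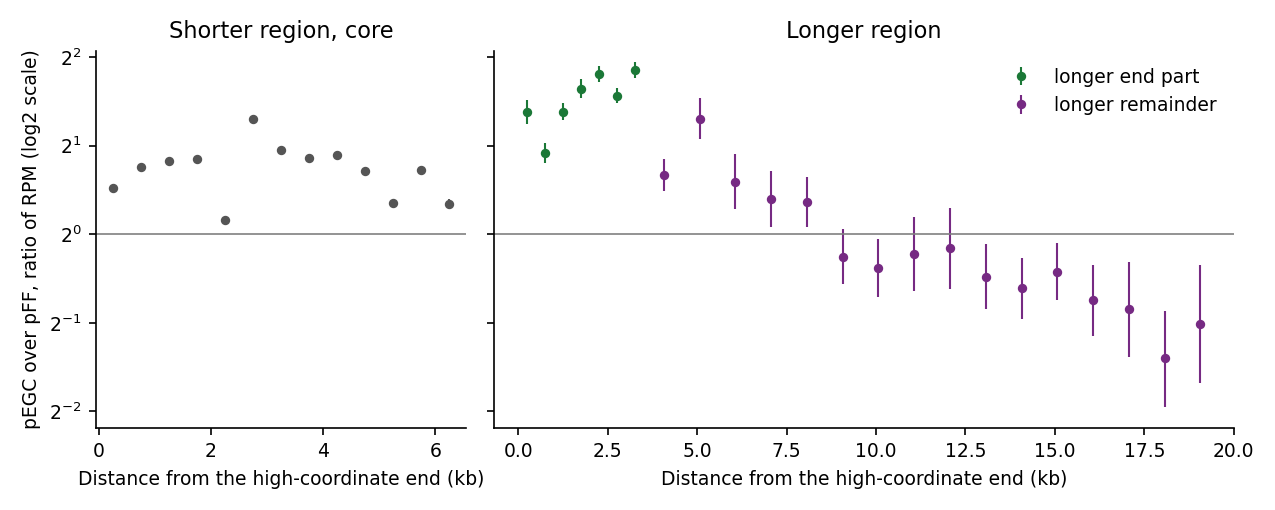
Ratio of pEGC over pFF levels (RPM, log2 scale) along the core of the shorter region (windows of 500 bases) and along the longer region (end part in windows of 500 bases, green; remainder in windows of 1 kb, purple), by distance from the high-coordinate end. Bars are exact 95% intervals for counting error. Every window of the shorter region lies above 1 with this scaling and counting. With each position and strand counted once 0 of 13 do, but that count has a ceiling in the number of positions. Along the longer region the ratio is highest, at 3.61, in the end part's window from 3 to 3.5 kb. It tends to fall along the remainder, with a lowest value of 0.379 near the far end.

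Few of the combinations of position and strand that exist in the remainder were in use, 5.51% in pEGC and 3.97% in pFF. Reads still repeated positions there, and whether these are copies was not tested. In the remainder, combinations of position and strand numbered 55.5% of the reads in pEGC and 57.2% in pFF, and no position held more than 38 reads in pEGC or 51 in pFF. Counted once per position and strand, the nearest segment was 7.32 times the farthest in pEGC and 2.52 times in pFF, a quotient of 2.91. With at most 5 reads per position the quotient was 3.65.

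The pair can also be set against each other within a library. Per kb of the whole region, the shorter was 26.9 times the longer in pEGC (26.6 to 27.2) and 40.6 times in pFF (39.8 to 41.4). The shorter region thus led by 1.51 times more in pFF (1.47 to 1.54). By the medians of bins of 100 bases this turned: the shorter was 268 times the longer in pEGC and 133 times in pFF. Set against the end part alone, the core of the shorter region was 5.92 times as abundant per kb in pEGC (5.85 to 5.99) and 10.4 times in pFF (10.1 to 10.6). Set against the remainder, the order of the libraries was the other way round, at 251 times in pEGC (243 to 260) and 169 times in pFF (162 to 176).

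**Figure D5:**
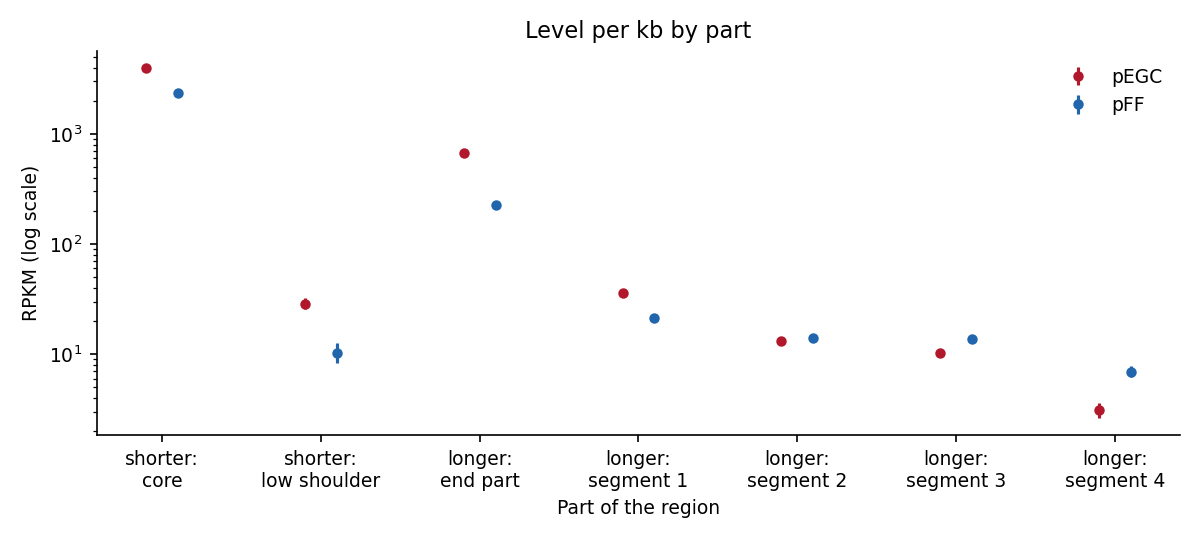
Level per kb (RPKM, log scale) of each part of both regions in pEGC (red) and pFF (blue), with exact 95% intervals for counting error, which are mostly smaller than the points. Segments of the remainder are numbered from the end part. The core of the shorter region is highest at 3931 RPKM in pEGC and 2356 RPKM in pFF, and the order of the libraries changes between segment 1 and segment 2 of the remainder.

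Other covered stretches that lay in or reached into the 80 kb were minor. One from 5149252 to 5151815, which begins below the 80 kb and is counted whole, had 125 reads in pEGC and 177 in pFF and was 1.81-fold higher in pFF (1.43 to 2.29). One from 5223905 to 5225647, above the longer region, had 144 and 58 reads and was 1.95-fold higher in pEGC (1.43 to 2.69). The other 4, of 20 to 46 pooled reads, had intervals that included 1. Between the pair lay one of 1514 bases with 23 reads in each library, and another just below the longer region with 13 and 7 reads.

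The wide regions nearest to the pair in level per kb differed between the cultures by 1.43-fold to 14.2-fold, in either direction. The 3 nearest to the shorter region were on chromosome 1 from 138127336 to 138145259 (6.22-fold higher in pFF), on chromosome 14 from 11463478 to 11469939 (12.4-fold higher in pEGC) and on chromosome 3 from 3868485 to 3877535 (1.68-fold higher in pFF). The highest of them had 12535 pooled reads per kb. The 3 nearest to the longer region were on chromosome 4 from 85269003 to 85278130 (14.2-fold higher in pEGC), on chromosome 1 from 112397536 to 112405195 (8.24-fold higher in pFF) and on chromosome 13 from 20946779 to 20952499 (1.43-fold higher in pFF). Cover was another difference: pooled reads covered 98.2% of the shorter region and 91.9% of the longer, against a median of 76.3% over the wide regions, and 12 and 205 of the 2244 had more.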

How the data were processed

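The deposited files are BED-like lists of aligned reads, 1 per line, giving chromosome, first and last position and strand. Their values are positions, a unit of their own (other), and counts were made from them here. Both libraries were made from twice-selected poly(A) RNA that was fragmented and reverse transcribed from random primers, per the labels' protocols. Aligner, build, filters and the handling of multiply matching reads: not given in the sources used here. The files hold reads of 34 bases on 19 chromosomes and are equal in length, so they may not hold every read of the deeper library.

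Reads were counted here by start with Python 3.11.15, numpy 2.4.6 and scipy 1.17.1. Covered regions join pooled starts within 200 bases and hold at least 20 reads. Because of that join, a region has no gap above 200 bases between starts by construction. The step is the boundary of highest Poisson likelihood for 2 levels, with libraries weighted equally. A count of 0 would be set to a floor of 3 reads (0.237 RPM in pEGC, 0.302 in pFF). Named are the members, all covered regions in the surroundings, and the 3 wide regions nearest to each member in reads per kb. Functions were tested on simulated data with independent reads. No p-value is given. Members and rules were chosen with earlier results of these data known. The RefSeq table served for names alone. Gene lists for paraspeckle proteins, nuclear speckles, neighbours and cell types were not evaluated, since genes could not be placed.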

Additional observations from a re-analysis of the deposited data

How the results depend on the processing

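No paired analysis was possible because each group had 1 library. Values are ratios of pEGC over pFF unless stated, and the cause of a change was not tested except where named. With all reads as the total, the ratio was 2.13 for the shorter region, 3.21 for the longer, 3.73 for its end part and 1.43 for the remainder, and the second segment of the remainder turned to 1.20. With reads in covered regions as the total, the first 3 were 1.76, 2.65 and 3.07. The trimmed mean of M-values gave 1.32, 1.99, 2.31 and, turned in direction, 0.887 for the remainder, and the median of ratios 1.30, 1.96, 2.27 and 0.873. These scalings multiply every ratio by 1 factor and leave quotients within a library as they are.

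With each position and strand counted once, the ratios turned to 0.745 (shorter), 0.974 (longer) and 0.843 (remainder), and the end part had 1.07. This count has a ceiling in the number of positions. In the shorter region most were in use, so the turn there does not decide the direction. With at most 5 reads per position they were 0.914, 1.29, 0.945 and 1.44, so that the shorter region and the remainder turned. Thinned to equal depth and counted once, the shorter region had 0.850 and the longer 1.04. With limits moved inward the shorter region had 1.68.

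Per kb, the shorter region counted once was 5.34 times the longer in pEGC and 6.97 times in pFF (quotient 0.765), and with at most 5 reads 8.12 and 11.4 times (0.709). By medians of bins it was 268 and 133 times, and the quotient turned to 2.01, since the median bin of the longer region lies in the remainder. The end part counted once was 8.24 times the remainder in pEGC and 6.50 times in pFF (quotient 1.27), with at most 5 reads 16.0 and 10.5 times (1.53), and by medians 56.2 and 19.0 times (2.96). An end part at the low-coordinate end had only 0.0172 and 0.0996 times the level of the rest (0.172). The nearest segment counted once was 7.32 times the farthest in pEGC and 2.52 in pFF (2.91), with at most 5 reads 9.79 and 2.68 times, and starting 1000 bases farther 9.72 and 2.52 times. Both quotients of the longer region, of end part over remainder and of nearest over farthest segment, stayed above 1 in every alternative other than the low-coordinate end. With starts joined over 100 bases the longer region fell into 3 regions. Alternatives for the end part's and the remainder's levels and for the segments were added after the data had been seen.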
